A study of Mus musculus with 12 samples.

Results

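The effect of deleting Prmt5 was compared gene by gene between periosteal stem cells (PSCs) and osteoclasts, the pair of cell types in which Ctsk-Cre is active. Genes were taken by level alone. A gene entered when its mean RPKM (reads scaled to exon length and to the mapped reads of the library) over 5 PSC libraries was at least 1 and every one of the 6 osteoclast libraries held at least 10 counts. Of 42131 genes named in both tables, 7496 passed both minimums, out of 11045 genes past the PSC minimum and 8678 past the osteoclast minimum. Tmem87a, at a mean of 1.0009 RPKM, stood just inside the PSC minimum, and Nek4, at 0.99998 RPKM, just outside it. At the osteoclast minimum, 116 genes had exactly 10 counts in their lowest library, and 142 genes missed it with 9. Postn, which encodes the matricellular protein periostin and marks PSCs, was not among the 7496 genes because counts of 16, 3 and 5 in control osteoclasts and of 12, 1 and 4 in cKO osteoclasts fell short.

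The PSCs were sorted by FACS as Ter119- CD31- 6C3- CD45- CD90- cells that were Ctsk+ by an EGFP reporter, CD51+, CD200+ and CD105-. They came from C57BL/6 mice aged 3-6 weeks, either Prmt5flox/Δ Ctsk-Cre CAG-CAT-EGFP mice, called cKO, or Prmt5flox/+ Ctsk-Cre CAG-CAT-EGFP controls. The controls therefore carried Cre, the reporter and 1 floxed allele as well. Osteoclasts were grown from bone marrow of 11-week-old C57BL/6 mice, control or Prmt5flox/Δ Ctsk-Cre, with M-CSF and then RANKL for 72 h. No source used here gives the genotype of these osteoclast controls. The comparison used 2 control and 3 cKO libraries of PSCs, which share a table, and 3 control and 3 cKO osteoclast libraries. No library was shared between the cell types, but age, culture, table and unit differed together with cell type, and their parts in any difference cannot be told apart. PSC control 3 stands in another table and was left out of the main comparison. The study describes the sequenced PSCs as coming from several mice in each group. For the osteoclast cultures no source used here says whether libraries came from separate mice, so their p-values measure the spread between these libraries.

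PRMT5 transfers methyl groups to arginine residues in a symmetrical pattern and works in a complex with the WD-repeat protein MEP50, encoded by Wdr77. Its best known substrates are Sm proteins of the small nuclear ribonucleoproteins, which remove introns, and histones. PSCs are skeletal stem cells of the bone surface that give rise to osteoblasts and make collagen-rich matrix. Osteoclasts are large multinucleated cells of the myeloid lineage that dissolve bone with acid and proteases, among which cathepsin K, encoded by Ctsk, is the main collagen-degrading enzyme.

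Osteoclast libraries held 984885 to 3608940 counts, and the steps of the RPKM values implied 9932976 to 13928745 mapped reads in the PSC libraries. The minimum of 10 counts was therefore uneven in CPM (counts scaled to a common library total). The lowest gene compared was at 10.2 CPM in osteoclast cKO 3, 8.10 CPM in cKO 2, 3.05 CPM in cKO 1 and 3.56 to 4.99 CPM in controls. The part of this in the osteoclast effects of low genes was not tested. Osteoclast markers summed to between 20573 and 30642 CPM in the 6 cultures, and Acp5, Mmp9 and Dcstamp were detected in each. In the 5 PSC libraries the same 8 osteoclast markers summed to between 232.2 and 252.8 RPKM. Ctsk, whose promoter drives Cre, gave 156.9 to 191.9 RPKM of this, and Acp5 (12.4 to 18.1 RPKM), Mmp9 (4.32 to 20.5 RPKM) and Nfatc1 (34.2 to 61.0 RPKM) were also detected. Dcstamp and Oscar were at 0 in 3 libraries each and at most at 0.300 RPKM. Col1a1 was between 6230 and 12918 RPKM. Red cell genes, which the sort was meant to leave out, summed to 46.9 and 32.8 RPKM in PSC controls and to 510.4, 854.8 and 181.8 RPKM in PSC cKO libraries. Pecam1, the gene of CD31, was at 0.672 and 0.537 RPKM against 6.72, 3.24 and 3.31 RPKM. Enpep, the gene of 6C3, was at 2.39 and 3.41 RPKM against 7.22, 5.11 and 7.97 RPKM. Eng, the gene of CD105, was also higher in every cKO library. The groups overlapped for Ptprc, the gene of CD45 (0.782 to 1.14 RPKM), and Thy1, the gene of CD90 (0.695 to 1.72 RPKM). Genes of blood cells were present in all 5 PSC libraries. The neutrophil genes S100a8 and S100a9 were at 351 to 609 and 444 to 817 RPKM, and the macrophage marker Lyz2 at 169 to 307 RPKM. The part of all these transcripts in the PSC effects was not tested. Osteoclast control 3 stood apart in sex-linked genes, with 1506 counts of Xist, which silences an X chromosome, against 0 or 1 in the other 5 libraries. It also had the lowest osteoclast marker sum of the 6 cultures and the highest sum of 5 macrophage markers (9280 CPM, against 8019 to 8710 CPM). Among PSCs, control 2 and cKO 3 stood apart, with Xist at 1.72 and 1.13 RPKM against at most 0.0343 RPKM in the others, and with the Y-linked Eif2s3y at 0.713 and 1.28 RPKM against at least 5.34 RPKM.

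Each gene received 2 effects, both cKO minus control on a log2 scale. The PSC effect was the difference of mean log2(RPKM + 1), and the osteoclast effect that of mean log2(CPM + 1). Because 1 was added before taking logs, effects of low genes are understated. Across the 7496 genes the 2 effects showed no clear relation. Pearson's r was -0.020 and Spearman's coefficient -0.034. These coefficients describe genes, which are not independent replicates. The effects had the same sign in 46.9% of genes, and in 48.2% once each was centred on its median. PSC effects spread more widely, with an SD of 0.31 against 0.20 in osteoclasts, while the median standard error of a gene's effect was 0.14 in PSCs and 0.16 in osteoclasts. Leaving out osteoclast control 1 gave r = -0.043 and leaving out osteoclast control 3 gave r = 0.0115, so the sign of r rested on single libraries.

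**Figure D1:**
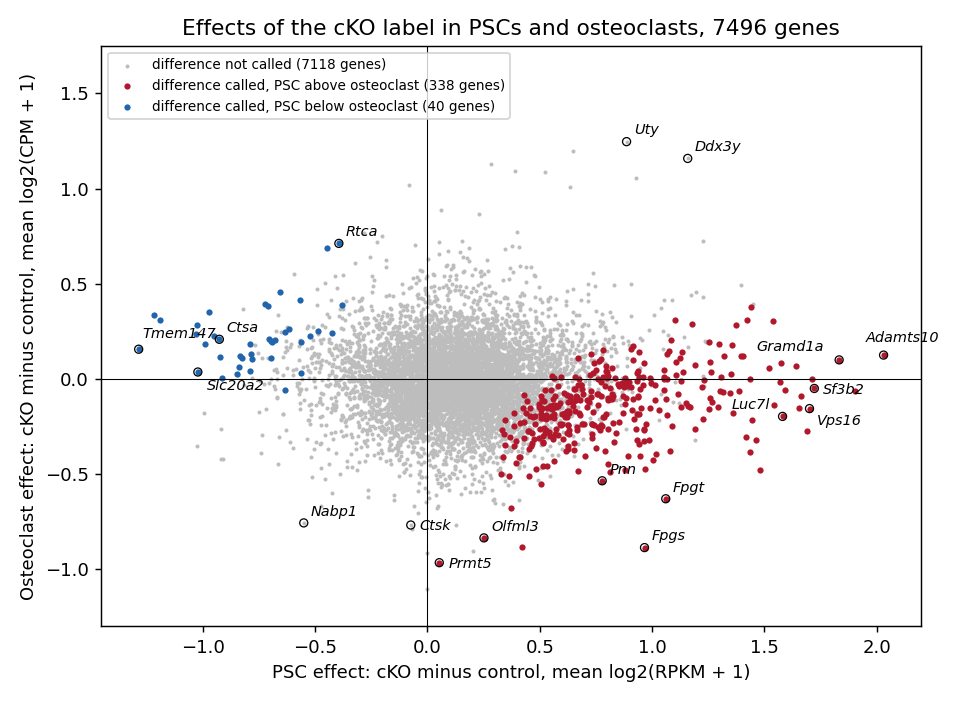
PSC effect on the x axis (difference of mean log2(RPKM + 1)) against osteoclast effect on the y axis (difference of mean log2(CPM + 1)), 1 point per gene for 7496 genes. Red and blue points are the 338 and 40 genes whose 2 effects differed by the limma test at an adjusted p under 0.05, and circled genes are named in the text. The cloud is wide along the PSC axis and shows no slope.

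The PSC effects were also shifted as a whole. The median effect was 0.14 in PSCs and -0.015 in osteoclasts, and 71.3% of genes had a PSC effect above 0, against 46.4% in osteoclasts. When the RPKM values were divided by median-ratio size factors, the PSC median became -0.0017. Counts of genes higher or lower in PSCs therefore depended on the scaling, and group medians are read below against 0.14 and -0.015.

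**Figure D2:**
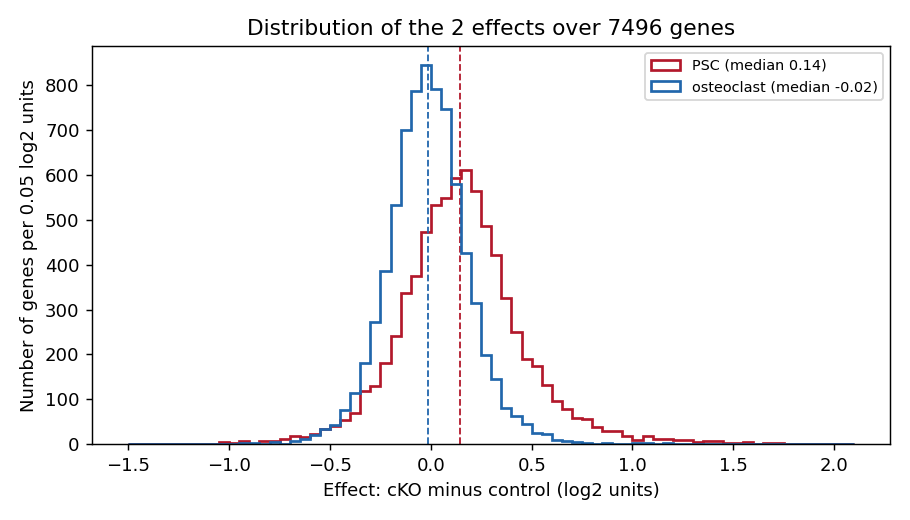
Number of genes (y axis, per bin of 0.05) at each effect (x axis, cKO minus control in log2 units) for PSCs and osteoclasts, over 7496 genes. Dashed lines mark the medians, 0.14 in PSCs and -0.015 in osteoclasts.

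Prmt5 itself moved in osteoclasts and not detectably in the sorted PSCs. In osteoclasts its level was 58.1, 71.0 and 69.1 CPM in controls and 29.1, 36.4 and 34.5 CPM in cKO libraries. All cKO cultures lay below all controls, a fall by 1.01 on the log2 scale (SE 0.16, edgeR adjusted p = 0.0349). None of the genes compared passed in osteoclasts with limma, or with edgeR without osteoclast control 2 or without cKO 3. In PSCs the 2 controls stood at 6.29 and 8.31 RPKM, and the libraries labelled cKO at 8.40, 6.31 and 8.08 RPKM. These groups overlapped, with an effect of 0.05 (SE 0.17, limma adjusted p = 0.871). The difference between the effects, PSC minus osteoclast, was 1.02 (SE 0.22, limma adjusted p = 0.0161), and 0.101 was the adjusted p without PSC control 1. It did not pass after centring of the effects or with a replicate block. The RPKM covers the whole gene, and reads over the floxed part alone were not examined. PSC directions below are those of the libraries labelled cKO. Postn was at 488.0 and 521.0 RPKM in the PSC controls and at 187.9, 239.7 and 195.6 RPKM in the libraries labelled cKO, all below both controls.

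Ctsk is the gene whose locus drives the Cre. Its osteoclast level was 9058, 8424 and 5764 CPM in controls and 4531, 4478 and 4388 CPM in cKO cultures. The groups did not overlap, but the edgeR log2 fold change of -0.77 (SE 0.16) did not pass the adjustment (adjusted p = 0.234). In PSCs it was 161.9 and 191.9 RPKM against 180.7, 156.9 and 165.6 RPKM, and the groups overlapped.

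**Figure D3:**
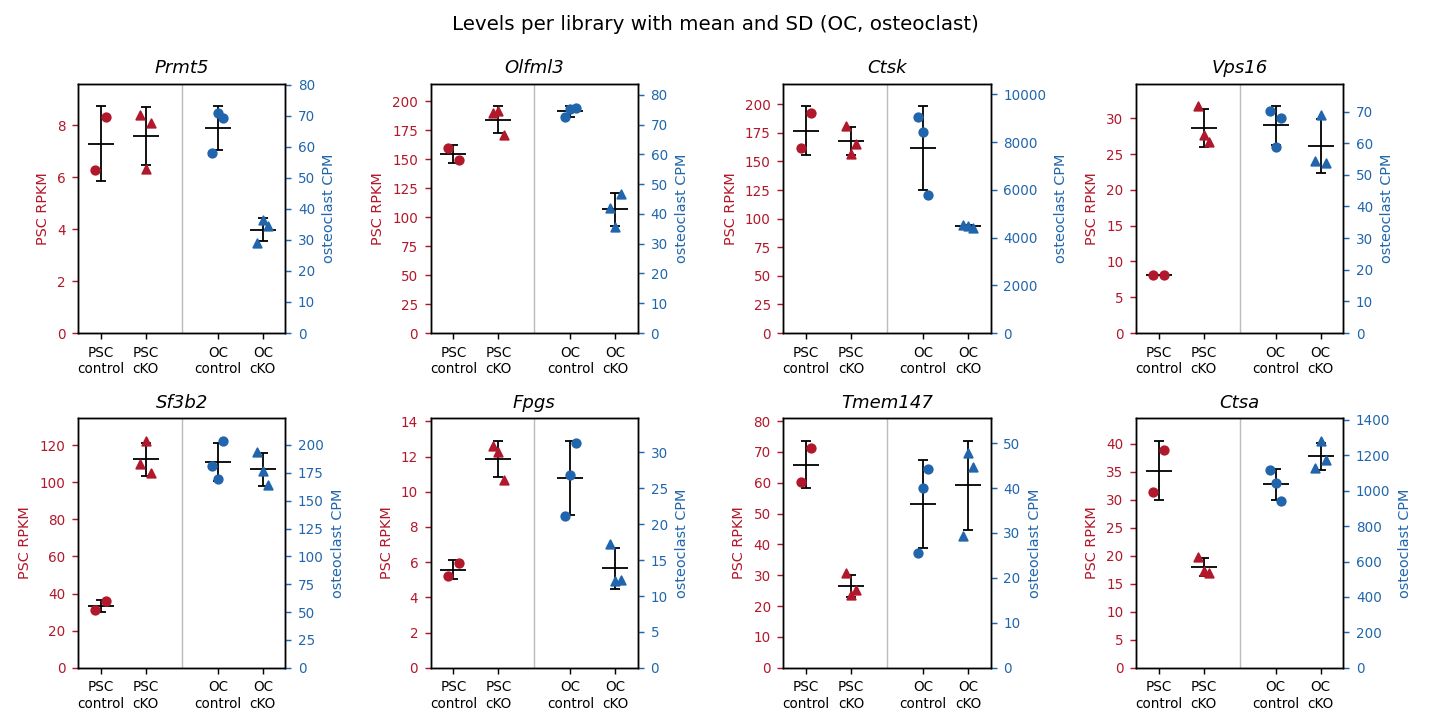
Level per library of 8 genes, with PSC RPKM on the left axis (red) and osteoclast CPM on the right axis (blue), both from 0. Circles are controls and triangles cKO, and bars give the mean and SD of 2 or 3 libraries. Prmt5 separates in osteoclasts, Vps16 and Sf3b2 separate upwards and Tmem147 and Ctsa downwards in PSCs, and Fpgs separates in opposite directions.

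Far more genes passed the test in PSCs than in osteoclasts. By limma, 925 of all 11045 genes tested in PSCs passed (8.37%, 6.99% higher), and 534 of the 7496 compared here (7.12%), 478 higher and 56 lower. This number was 39 without PSC control 1 and 120 without PSC control 2. With size factors it was 343, of which 218 were higher and 125 lower. By edgeR, 4 of 10724 genes passed in osteoclasts (0.0373%, made up of 0.0186% higher and 0.0186% lower), and 2 of the 7496 (0.0267%), Prmt5 and Olfml3, both lower. Without any adjustment 357 genes had an osteoclast p under 0.05 (4.76%). DESeq2 called 1 gene.

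Olfml3 encodes a secreted glycoprotein with an olfactomedin domain. It lay at 72.4, 75.2 and 75.6 CPM in osteoclast controls and at 42.1, 35.6 and 46.7 CPM in cKO cultures. It fell by 0.83 on the log2 scale (SE 0.14, edgeR adjusted p = 0.0499), a value at the threshold. Like Prmt5, it did not pass in osteoclasts with limma, or with edgeR without osteoclast control 2 or without cKO 3. In PSCs the same gene was at 159.6 and 149.0 RPKM in the 2 controls and at 190.0, 191.4 and 170.8 RPKM in the libraries labelled cKO, all above both controls, with an effect of 0.25 that did not pass (limma adjusted p = 0.246). The effects differed by 1.09 (SE 0.16, limma adjusted p = 0.000834), and the difference passed in all 11 fits that left out a library.

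Genes that passed in PSCs were then read in the osteoclast libraries, which had no share in choosing them. The 478 genes higher in PSCs had a median PSC effect of 0.75 and a median osteoclast effect of -0.013, close to the -0.015 of all genes, and 50.8% of them lay above the osteoclast median. Their osteoclast groups were apart upwards in 25 genes (5.23%) and downwards in 35 (7.32%), against 5.36% and 5.44% of all 7496 genes. The 56 genes lower in PSCs had a median PSC effect of -0.75 and a median osteoclast effect of 0.05, and 67.9% lay above the osteoclast median. Among the 534 genes the largest osteoclast effect was that of Fam98c, 1.06. In 472 of the 478 and in all 56 the osteoclast effect was under 0.5 in size.

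The comparison was also read from the osteoclast side. The 402 genes whose osteoclast libraries were all higher in cKO had a median PSC effect of 0.13, and the 408 whose libraries were all lower had 0.18, on either side of the overall 0.14. PSC groups were apart upwards in 37.8% of the former and 41.4% of the latter, against 38.4% of all genes. In osteoclasts only 2 of the 7496 genes passed by edgeR, and 4.76% had an unadjusted p under 0.05. Most of these osteoclast directions are thus not established, and this reading cannot show whether the effects agree.

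Whether an effect was particular to a cell type was tested on the difference itself. In a joint limma fit of the 11 libraries, 378 of 7496 genes passed (5.04%), 338 with the PSC effect above the osteoclast effect and 40 below (0.534%). Without adjustment 1569 genes had a p under 0.05 (20.9%). After centring both effects on their medians, 205 passed, 108 above and 97 below. Of the 478 genes higher in PSCs, 254 (53.1%) had a positive difference that passed, and of the 56 lower, 29 (51.8%) a negative one. For the remaining 224 and 27 the test did not separate the cell types.

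Genes with a large positive difference came from several functions. Sf3b2, a subunit of the U2 snRNP that recognises the branch point, was at 31.0 and 35.7 RPKM in PSC controls and at 109.9, 122.1 and 105.0 RPKM in cKO libraries. Osteoclast levels were 181.4, 169.2 and 203.5 CPM against 193.7, 176.5 and 164.5 CPM. The PSC groups were far apart and the osteoclast groups overlapped, with effects of 1.72 and -0.05 and a difference of 1.77 (SE 0.16, limma adjusted p = 1.07e-05). Vps16, a core subunit of the tethering complexes that bring vesicles to endosomes and lysosomes, was at 8.07 and 8.16 RPKM in PSC controls and 31.7, 27.7 and 26.7 RPKM in cKO libraries. Its osteoclast levels of 70.0, 58.7 and 68.1 CPM in controls and 54.3, 68.8 and 53.8 CPM in cKO overlapped. The difference was 1.86 (SE 0.19). Exons of Vps16 overlap Pced1a on the other strand, and no source used here says whether the counting used strand.

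The others named by the same rule were Adamts10, a secreted protease of the extracellular matrix (difference 1.90), Luc7l, a U1 snRNP-associated protein (1.78), Ivns1abp, a kelch protein (1.76), Gramd1a, a carrier of cholesterol between membranes (1.73), Dvl1, which relays Wnt signals (1.72), and Prkcd, a protein kinase C (1.71). Adamts10 had the widest PSC effect of all 7496 genes, 2.03, from 24.6 and 27.7 RPKM to 115.6, 112.6 and 101.3 RPKM. Its osteoclast levels ran from 23.5 to 34.6 CPM in controls and from 26.7 to 39.6 CPM in cKO. Prkcd showed the contrast most plainly in level. It rose from 8.45 and 8.79 RPKM to between 27.3 and 33.2 RPKM in PSCs, and averaged 318.4 ± 23.1 CPM (SD, n = 3) in osteoclast controls and 318.3 ± 14.3 CPM (SD, n = 3) in cKO. All 8 kept their call in each of the 11 fits with a library left out.

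Genes with a large negative difference were fewer and smaller in effect on the main scaling. How many fewer depended on it, with 97 negative and 108 positive differences after centring, and 72 and 134 with PSC size factors. Tmem147, an endoplasmic reticulum membrane protein, fell in PSCs from 60.4 and 71.3 RPKM to 30.7, 23.6 and 25.2 RPKM, an effect of -1.28 (limma adjusted p = 0.00813). Its osteoclast levels were 25.5, 39.9 and 44.2 CPM in controls and 29.4, 47.8 and 44.7 CPM in cKO, and overlapped. The difference was -1.44 (SE 0.29, limma adjusted p = 0.0102), but 0.0592 was the adjusted p without PSC control 2. Ctsa, a lysosomal carboxypeptidase that protects other lysosomal enzymes, fell from 31.5 and 38.9 RPKM to 19.9, 17.2 and 16.9 RPKM in PSCs. In osteoclasts, where it was abundant, it was at 1118, 1046 and 943 CPM in controls and 1131, 1280 and 1175 CPM in cKO, and the lowest cKO value was above the highest control. Its difference of -1.13 (SE 0.17, limma adjusted p = 0.000834) passed in all 11 left-out fits. Exons of Ctsa overlap Neurl2 and Pltp on the other strand.

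Timp2, an inhibitor of matrix metalloproteinases, and Mmp14, a membrane-bound metalloproteinase that activates other proteases, followed the same course. Mmp14 was at 213.9 and 214.5 RPKM in PSC controls and at 133.3, 132.0 and 131.9 RPKM in cKO libraries, with no overlap. Its osteoclast levels were 538.7, 491.5 and 378.1 CPM against 520.7, 545.0 and 531.0 CPM. The difference was -0.89 for Mmp14 and -0.97 for Timp2 (both SE 0.18), and each kept its call in the 11 left-out fits. Tprgl (-1.12), Slc20a2, a phosphate transporter (-1.06), Lars2, the mitochondrial leucyl-tRNA synthetase (-0.90), and Sfxn3, a mitochondrial serine carrier (-0.80), lost the call in 2 to 8 of the 11 fits.

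To show what lies before genes of each pattern, the 250 bases upstream of the RefSeq start site (GRCm38.p6) are printed for 4 named genes, with 4 motifs in capitals on either strand. The CCAAT box was searched as CCAAT, the GC box as GGGCGG, the TATA box as TATAAA and the ETS core as CCGGAA. Vps16 rose in PSCs, Fpgs had opposite effects, Tmem147 fell in PSCs, and Olfml3 fell in osteoclasts. They lie at chr2:130424070-130424319 on the plus strand, and at chr2:32694176-32694425, chr7:30729535-30729784 and chr3:103738002-103738251 on the minus strand.
Vps16: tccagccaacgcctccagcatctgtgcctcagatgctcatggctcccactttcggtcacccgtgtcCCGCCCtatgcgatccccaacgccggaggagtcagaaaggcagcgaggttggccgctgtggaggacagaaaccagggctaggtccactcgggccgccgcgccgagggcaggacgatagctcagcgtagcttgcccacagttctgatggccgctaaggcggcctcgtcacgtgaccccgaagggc
Fpgs: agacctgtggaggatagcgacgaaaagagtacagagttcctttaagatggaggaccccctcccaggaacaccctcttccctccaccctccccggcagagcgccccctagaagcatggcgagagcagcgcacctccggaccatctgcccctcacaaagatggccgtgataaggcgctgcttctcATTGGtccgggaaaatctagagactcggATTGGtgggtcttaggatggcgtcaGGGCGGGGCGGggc
Tmem147: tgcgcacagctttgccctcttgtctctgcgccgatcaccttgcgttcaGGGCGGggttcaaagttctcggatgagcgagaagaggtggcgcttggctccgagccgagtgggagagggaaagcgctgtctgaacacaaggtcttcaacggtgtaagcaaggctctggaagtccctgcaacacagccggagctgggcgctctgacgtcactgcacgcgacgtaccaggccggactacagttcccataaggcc
Olfml3: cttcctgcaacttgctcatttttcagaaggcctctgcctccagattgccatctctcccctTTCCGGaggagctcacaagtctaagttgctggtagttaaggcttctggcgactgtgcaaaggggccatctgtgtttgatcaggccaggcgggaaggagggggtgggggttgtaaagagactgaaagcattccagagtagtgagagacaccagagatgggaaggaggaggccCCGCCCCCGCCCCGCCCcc

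Each of the 4 windows held the GC box, none the TATA box, the CCAAT box occurred in Fpgs only and the ETS core in Olfml3 only. Of the 7496 genes, 6009 had a promoter in the RefSeq table. The GC box was in 64.4% of these, against 32.9% of all 27025 promoters of the table. It was in 64.1% of the 273 promoters of genes with a positive difference and in 63.9% of the 36 with a negative one. The CCAAT box was in 36.6% of the promoters of genes compared here, in 39.2% of those with a positive difference and in 27.8% of those with a negative one. A match describes a sequence, not a binding site.

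Genes whose libraries were apart in both cell types, with every cKO library beyond every control, numbered 388. Of all 7496 genes, 46.7% were apart in PSCs and 10.8% in osteoclasts. Of all genes tested, 35.6% were apart upwards and 10.2% downwards in PSCs (45.8% in either direction). In osteoclasts 4.81% were apart upwards and 6% downwards. In 179 of the 388 (46.1%) the direction was the same, 152 higher and 27 lower in both, and in 209 it was opposite, 169 higher in PSCs and lower in osteoclasts and 40 the reverse. With size factors in PSCs and TMM factors in osteoclasts these counts were 89, 75, 103 and 84, and the share with the same direction was 46.7%. No gene passed the adjusted tests of both cell types. Of the 402 genes apart upwards in osteoclasts, 37.8% were apart upwards and 9.95% downwards in PSCs. Of the 408 apart downwards in osteoclasts, these shares were 41.4% and 6.62%. Of all 7496 genes they were 38.4% and 8.31%. The counts of shared and opposite directions were thus near the shares over all genes, and are no result about their members.

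Among genes higher in both, the largest smaller effects belonged to Dnajc27, a small GTPase of the Rab type with a DnaJ domain, and Alkbh3, a demethylase of alkylated nucleic acids. Dnajc27 was at 1.38 and 1.17 RPKM in PSC controls and at 2.91, 2.59 and 2.69 RPKM in cKO libraries. In osteoclasts it was at 14.3, 11.9 and 13.9 CPM against 15.2, 21.9 and 21.3 CPM. It passed in PSCs (limma adjusted p = 0.0194) and not in osteoclasts (edgeR adjusted p = 0.950). Pla2g7, a secreted phospholipase that inactivates platelet-activating factor, lay at 1.63 and 2.78 RPKM against 8.87, 6.52 and 4.06 RPKM in PSCs. In osteoclasts it lay at 196.9, 165.0 and 134.7 CPM against 233.3, 221.1 and 221.3 CPM, and passed in neither (adjusted p = 0.0519 by limma and 0.876 by edgeR). Vsig10, Crip1, Phf1, Iscu, Cwc25, Arrdc4 and Abhd4 had smaller effects between 0.41 and 0.45, and of these Vsig10 and Arrdc4 passed in PSCs. PSC control 3, in the other table, was above every PSC cKO library for Alkbh3 (7.69 RPKM), Phf1 (17.5 RPKM), Cwc25 (8.62 RPKM) and Abhd4 (40.8 RPKM). For the remaining genes of this paragraph it was below every PSC cKO library.

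Genes lower in both were led by Nabp1, a single-stranded DNA-binding protein of DNA repair. PSC controls had 2.09 and 1.99 RPKM, and PSC cKO libraries 0.999, 0.792 and 1.496 RPKM. Its osteoclast levels were 38.6, 35.3 and 28.2 CPM against 26.6, 13.8 and 20.3 CPM. Neither passed after adjustment (limma 0.0875 and edgeR 0.950). Flrt2, a membrane guidance protein, had effects of -0.39 and -0.50. Col4a5, a basement membrane collagen chain (-0.74 and -0.39), and Cpq, a secreted peptidase (-0.66 and -0.30), passed in PSCs and not in osteoclasts. Ydjc, Tes, Zfp318, Rps3a1, which has near-identical copies in the genome, and Col4a3bp were also named by the rule, and passed in neither. PSC control 3, in the other table, was below every PSC cKO library for Ydjc (0.103 RPKM), Tes (0 RPKM) and Rps3a1 (107.1 RPKM). It lay among the cKO libraries for Col4a3bp (2.373 RPKM) and above every one for the other genes of this paragraph.

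Counted by size instead of overlap, 8 genes exceeded 0.5 upwards in both cell types and 2 downwards, while 819 and 136 did so in PSCs and 85 and 84 in osteoclasts. The 8 were named after their values were seen, as were the other genes of this count that no rule named. They included Ddx3y and Uty, genes of the Y chromosome, whose levels followed the library and not the group. Ddx3y was at 16.5 and 1.56 RPKM in PSC controls and 22.3, 23.9 and 4.71 RPKM in cKO libraries. Its osteoclast levels were 52.9, 67.1 and 3.92 CPM against 64.8, 51.8 and 56.9 CPM, so that a low value of 1 control in each cell type made the effect. Fam98c, Snhg8, Gm20427, Rps27rt, Ift57 and Myadm were the other 6, and Nabp1 and Gm14548 the 2 that were lower. PSC control 3, in the other table, was above every PSC cKO library for Fam98c (8.53 RPKM), Rps27rt (157.3 RPKM) and Ift57 (14.5 RPKM). For the others of the 8 it was below the highest cKO library, and for Gm14548 below every one (0.203 RPKM). Snhg8 is a small nucleolar RNA host gene, and Ift57 a subunit of the intraflagellar transport complex.

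Opposite effects past 0.5 were found in 6 genes, Fpgs, Fpgt, Pnn, Cdc7 and Ankrd54 upwards in PSCs and Gm28043 downwards. Fpgs, which adds glutamates to folates and so keeps them in the cell, was at 5.20 and 5.95 RPKM in PSC controls and 12.6, 12.3 and 10.7 RPKM in cKO libraries. In osteoclasts it was at 21.1, 26.9 and 31.4 CPM in controls and 17.2, 12.1 and 12.2 CPM in cKO. Both pairs of groups were apart, and the difference of 1.85 (SE 0.26, limma adjusted p = 0.00053) kept its call in the 11 left-out fits. The osteoclast change alone did not pass (edgeR adjusted p = 0.876). Exons of Fpgs overlap Eng on the other strand, the gene of CD105, by which PSCs were sorted. Eng was at 3.52 and 2.22 RPKM in PSC controls and 6.62, 4.004 and 3.85 RPKM in cKO libraries, and its part in the Fpgs values was not tested.

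Pnn, or pinin, a nuclear protein of the exon junction and of cell adhesion, was at 5.69 and 6.71 RPKM against 10.6, 10.6 and 12.8 RPKM in PSCs. In osteoclasts it was at 51.3, 56.8 and 49.9 CPM against 38.2, 32.4 and 37.6 CPM. It rose in PSCs (limma adjusted p = 0.0241) and its osteoclast value did not pass (edgeR adjusted p = 0.950), with a difference of 1.31 (SE 0.19, limma adjusted p = 0.000834). PSC control 3, in the other table, was at 16.6 RPKM, above every library labelled cKO, and the difference did not pass with all 6 PSC libraries. Fpgt, a fucose nucleotide pyrophosphorylase (difference 1.69), and Ppan, a ribosome biogenesis factor (1.15), also kept their call in the 11 fits. Ankrd54 (1.06) and Rbm12b2 (1.30) lost it in 5 and 1 of them. PSC control 3 was at 5.06 RPKM for Rbm12b2, above every library labelled cKO, and that difference did not pass with all 6 PSC libraries. Cdc7, a kinase that starts DNA replication, had effects of 0.54 and -0.51, and its difference did not pass (limma adjusted p = 0.177).

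The reverse pattern, lower in PSC and higher in osteoclast cKO libraries, had smaller differences. Of the 6 genes named, Hebp1, a haem-binding protein, Fdxr, which passes electrons to mitochondrial P450 enzymes, Rtca, an RNA cyclase, and Amdhd2, an enzyme of amino sugar breakdown, had differences of -1.13, -0.98, -1.11 and -1.12 that passed (limma adjusted p = 0.0414, 0.0416, 0.0424 and 0.0203). Each failed in 4 to 9 of the 11 left-out fits. Rtca was at 9.30 and 9.91 RPKM against 6.80, 6.64 and 7.82 RPKM in PSCs, and at 11.1, 18.4 and 23.5 CPM against 27.2, 30.8 and 27.4 CPM in osteoclasts. Glb1l and the ephrin receptor gene Epha4 did not pass (limma adjusted p = 0.0514 and 0.0806).

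Of 44 SR proteins, hnRNPs and splicing kinases, 13 rose in PSCs and none fell, none passed in osteoclasts, and the difference was positive in 14. Of all 7496 genes 6.38% rose in PSCs and 4.51% had a positive difference. Their median effect was 0.36 in PSCs against 0.14 for all genes, and -0.11 in osteoclasts against -0.015. Srsf7, an SR protein that binds exons, went from 36.9 and 34.6 RPKM to 72.6, 81.2 and 78.1 RPKM in PSCs, and from 97.5, 99.4 and 124.7 CPM to 100.6, 83.4 and 85.3 CPM in osteoclasts. Its difference was 1.34 (SE 0.17, limma adjusted p = 0.000284). Hnrnph1 had effects of 1.16 and -0.14, the kinase Clk2 of 1.39 and 0.12, and Srpk1, which phosphorylates SR proteins, of 0.81 and -0.10, with differences that passed. Of 37 core spliceosome subunits, 9 rose in PSCs and none fell, and the difference was positive in 9. Snrnp200, the helicase that unwinds U4 from U6, rose from 8.26 and 8.01 RPKM to 21.6, 21.9 and 25.3 RPKM in PSCs and stayed between 248.8 and 305.3 CPM in the osteoclast libraries. With size factors the counts of PSC rises were 7 of 44 and 5 of 37, with medians of 0.20 and 0.19, without PSC control 1 they were 2 and 2, and without PSC control 2 they were 4 and 4. The counts of positive differences, 14 and 9, became 7 and 5 with PSC size factors and osteoclast TMM scaling, with 1 negative difference in the first list. They were 5 and 4 without PSC control 1, 8 and 6 without PSC control 2, and 9 and 7 without osteoclast control 3.

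Sm, LSm and SMN complex genes, a class that holds some of the known substrates of PRMT5, did not pass in either cell type in any of 24 members, with medians of 0.19 in PSCs and -0.07 in osteoclasts. Gemin5, which recognises snRNAs, had effects of 0.43 and -0.32 and Lsm4 of 0.38 and -0.10, and neither difference passed. Of 9 genes of the PRMT family and of PRMT5 partners, Prmt5 was the single one that passed, in osteoclasts and in the difference. Riok1, an adaptor of PRMT5, had effects of 0.47 and -0.28 (limma adjusted p of the difference 0.102). In PSC control 3, in the other table, Riok1 was at 5.92 RPKM, above every library labelled cKO. Of 16 nonsense-mediated decay factors none passed in PSCs and the difference was positive for Magoh, of the exon junction complex (0.81, limma adjusted p = 0.0484), which kept its call in 1 of the 11 left-out fits. Upf1, the helicase of the pathway, had effects of 0.47 and -0.09 that did not differ by the test.

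Of 20 genes of the p53 pathway, 5 rose in PSCs (Trp53, Cdkn1a, Ccng1, Gadd45b and Ercc5), against 6.38% of all 7496 genes. None fell, and none passed in osteoclasts. Cdkn1a, the p53 target that stops the cell cycle, was at 78.4 and 84.3 RPKM in PSC controls and at 140.6, 141.3 and 152.8 RPKM in cKO libraries. In osteoclasts it was at 42.2, 47.6 and 57.4 CPM against 46.3, 36.4 and 41.6 CPM. Its difference of 1.06 (SE 0.18, limma adjusted p = 0.00309) held in the 11 left-out fits, and that of Ercc5 (1.12), a repair nuclease, in 10. With size factors 4 genes of the list rose in PSCs, and 0 did without PSC control 1 or without PSC control 2.

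Of 35 proliferation genes, 3 rose in PSCs (Mcm5, Aurkb and Ube2c), against 6.38% of all 7496 genes. The difference was positive for Ccna2 and Ccnb2, cyclins of the S and G2 phases, against 4.51% of all genes. These differences held in 5 and 2 of the 11 left-out fits, and neither passed with size factors or without osteoclast control 3. The median PSC effect was 0.46, the highest of the lists with at least 8 genes, and the osteoclast median was -0.14. Ccna2 was at 1.42 and 2.79 RPKM against 3.27, 5.25 and 4.97 RPKM in PSCs, and at 89.1, 95.5 and 123.0 CPM against 88.1, 83.4 and 78.2 CPM in osteoclasts. No gene of this list rose in PSCs with size factors or without either PSC control, and without osteoclast control 3 its osteoclast median was -0.017.

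**Figure D4:**
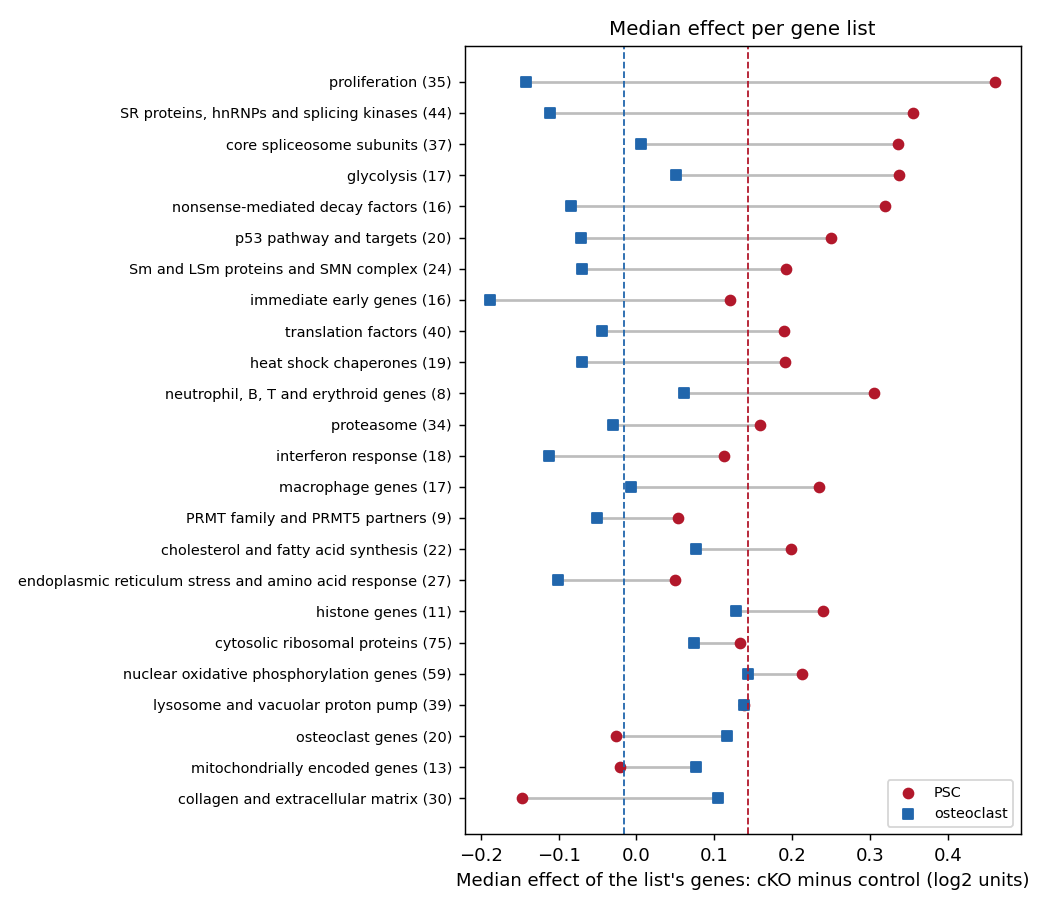
Median effect (x axis, cKO minus control in log2 units) of the genes of 24 lists with at least 8 members (y axis, members in brackets), in PSCs (circles) and osteoclasts (squares), ordered by the median difference. Dashed lines are the medians of all 7496 genes, 0.14 and -0.015. The proliferation list has the largest median difference and the collagen and matrix list the lowest.

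Collagen and matrix genes were the list with most falls in PSCs. Of 30 members, 8 fell (Col1a1, Col1a2, Col3a1, Col5a1, Col12a1, Hspg2, Mmp14 and Timp2) and 2 rose (Col18a1 and Plod1). Of all 7496 genes 0.747% fell and 6.38% rose. The median was -0.15 against 0.14 for all genes. In osteoclasts none passed and the median was 0.10, which became -0.28 without osteoclast control 3. The difference passed in 3 genes each way, among them Hspg2, or perlecan (-1.55, limma adjusted p = 0.0243). Col1a1, the main bone collagen chain, fell in PSCs from 12918 and 10117 RPKM to 6230, 6913 and 6338 RPKM. Its osteoclast levels of 175.1, 99.4 and 37.8 CPM in controls and 56.8, 52.6 and 205.1 CPM in cKO spread too widely for the effects, -0.82 and -0.03, to be told apart (limma adjusted p = 0.553). Col18a1, a basement membrane collagen, went the other way, from 9.11 and 6.19 RPKM to 18.3, 13.5 and 15.7 RPKM in PSCs and from 44.2, 49.1 and 57.7 CPM to 40.5, 34.8 and 32.5 CPM in osteoclasts. Its difference was 1.44 (SE 0.24, limma adjusted p = 0.0023), and it held in the 11 left-out fits. With size factors 10 members fell in PSCs and none rose, without PSC control 1 none fell, and without PSC control 2, 2 fell.

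Genes of the osteoclast programme did not pass in either cell type in any of 20 members. Mmp9, the gelatinase of osteoclasts, had effects of -0.97 in PSCs and 0.35 in osteoclasts, and its difference of -1.32 (limma adjusted p = 0.0484) held in 3 of the 11 left-out fits. PSC control 3, in the other table, was at 3.33 RPKM for Mmp9, below every library labelled cKO. The Mmp9 difference did not pass with all 6 PSC libraries. Of 39 genes of the lysosome and the vacuolar proton pump, 3 rose and 1, Ctsa, fell in PSCs, against 6.38% and 0.747% of all 7496 genes. Both medians were 0.14. Ctsd, the lysosomal aspartic protease cathepsin D, rose in PSCs from 217.5 and 245.3 RPKM to 356.5, 376.3 and 331.5 RPKM (limma adjusted p = 0.0352) and had an osteoclast effect of 0.05. Their difference did not pass (limma adjusted p = 0.0790). With size factors the PSC median of this list was -0.011.

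Nuclear genes of oxidative phosphorylation, 59 in number, had medians of 0.21 in PSCs and 0.14 in osteoclasts, and none had a difference that passed. In osteoclasts 13 of them had groups apart upwards and none downwards, against 5.36% and 5.44% of all genes, but none passed by edgeR, and the median fell to 0.07 without osteoclast control 3. In PSCs 3 of the 59 rose, against 6.38% of all 7496 genes, and none did with size factors. The 13 mitochondrially encoded genes did not pass in either cell type (medians -0.022 and 0.08). Of 17 glycolysis genes 4 rose in PSCs (Slc2a1, Pfkl, Pfkm and Tpi1), against 6.38% of all genes, and 2 did with size factors. The list's median difference was 0.35 against 0.16 for all genes. Slc2a1, the glucose transporter GLUT1, went from 9.58 and 8.20 RPKM to 16.2, 17.3 and 17.8 RPKM in PSCs and lay at 32.6, 36.5 and 32.4 CPM against 36.6, 38.1 and 25.4 CPM in osteoclasts. Its difference was 0.91 (limma adjusted p = 0.0256) and held in 6 of the 11 left-out fits.

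Of 75 cytosolic ribosomal protein genes none passed in either cell type, and the medians were 0.13 and 0.07. The difference passed for Rps27a (0.56, limma adjusted p = 0.0479) and held in 1 of the 11 left-out fits. With size factors the PSC median of this list was -0.037 and 1 gene fell. Of 40 translation factors 3 rose in PSCs, against 6.38% of all 7496 genes. The difference was positive for Eif5b (0.99) and Eif2s1 (0.67), both of translation initiation, against 4.51% of all genes. They held in 9 and 2 of the 11 left-out fits, and Eif2s1 did not pass with size factors. Of 34 proteasome genes 1 rose in PSCs, against 6.38% of all 7496 genes. Psmd6, a subunit of the 19S lid, had a difference of 0.84 (limma adjusted p = 0.00493) that held in the 11 left-out fits. Its levels were 16.5 and 17.01 RPKM against 30.1, 28.5 and 28.5 RPKM in PSCs, and 65.2, 72.9 and 78.1 CPM against 66.2, 69.6 and 68.0 CPM in osteoclasts. Psme2, an activator subunit induced by interferon, had a difference of 0.84 (limma adjusted p = 0.0264).

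Of 19 heat shock chaperones 2 rose in PSCs, against 6.38% of all 7496 genes. The difference was positive for the mitochondrial chaperones Hspa9 (0.58) and Hspd1 (0.56), against 4.51% of all genes. Of 27 genes of endoplasmic reticulum stress and the amino acid response none passed in PSCs, and the difference was positive for the chaperone Hsp90b1 (0.62, limma adjusted p = 0.0339). None of these 3 differences passed with size factors. The 16 immediate early genes had medians of 0.12 and -0.19, with no call and no osteoclast groups apart. The 18 interferon response, 22 cholesterol and fatty acid, 11 histone and 8 neutrophil, lymphoid and erythroid genes had no call in either cell type. Of 17 macrophage genes 1 fell in PSCs, against 0.747% of all 7496 genes. No member of 3 skeletal stem, osteoblast, endothelial and muscle genes passed.

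In lists without a called difference, the 2 genes with the smallest p of the difference are given as PSC and osteoclast effects, and none of these differences passed by limma. Cd36, a scavenger receptor, had effects of 1.23 and 0.016 and H2-Aa, an MHC class II chain, of 1.03 and -0.21, both among macrophage genes. Ighm, the immunoglobulin mu chain, had 0.65 and -0.40, and Ltf, lactoferrin of neutrophil granules, 0.45 and -0.063. In PSC control 3, in the other table, H2-Aa was at 9.66 RPKM, above every library labelled cKO. Cd36 (0 RPKM), Ighm (9.14 RPKM) and Ltf (0.0833 RPKM) were below every one there. The part of blood cells among the sorted cells in these PSC effects was not tested. Of the immediate early genes, Dusp6, a phosphatase of ERK, had 0.68 and 0.016 and Junb, an AP-1 subunit, 0.38 and -0.25. The interferon genes Ddx58, an RNA sensor, and Ifitm3, which blocks virus entry, had 0.67 and -0.15, and 0.35 and -0.23. The first effect was above the second in each of these genes, but they were picked by the p of that difference. The median difference over all 7496 genes was also above 0, at 0.16, so the shared direction is no result about these genes. Sqle, an enzyme of cholesterol synthesis, had 0.55 and -0.17, whereas Srebf1, a regulator of lipid synthesis, had -0.28 and 0.21. Ndufb7 and Ndufb9, subunits of complex I, had 0.49 and -0.035, and 0.43 and -0.098. The mitochondrially encoded subunits mt-Nd4 and mt-Nd1 had -0.12 and 0.20, and -0.20 and 0.061. H2afx and Hist1h2bc, histone genes, had 0.48 and 0.088, and 0.39 and 0.059. Itgav, the gene of CD51, had -0.18 and -0.060. As the other gene named in its list, Rps24, of the small ribosomal subunit, had 0.25 and -0.23, and Asns, asparagine synthetase, 0.36 and -0.36. PSC control 3 was above every library labelled cKO for Rps24 (87.4 RPKM) and Ndufb9 (96.7 RPKM), and below every one for Itgav (11.4 RPKM). For Ddx58 and Ndufb7 it lay among the cKO libraries. For the rest of this paragraph, H2-Aa apart, it lay beyond them on the control side.

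Properties of the genes were set beside the effects, as a description across genes of the same libraries. The osteoclast effect was related to GC content of the longest transcript, with Pearson's r of 0.23 over 7440 genes, and the PSC effect less so, with -0.064. In the 1860 genes with the lowest GC content the median osteoclast effect was -0.090, and in the 1860 with the highest 0.046, while PSC medians were 0.16 and 0.11. With log2 exon length the osteoclast r was -0.16 and the PSC r -0.0041. Within each of 4 equal groups of GC content the 2 effects stayed unrelated, with r between -0.020 and 0.030. The part of GC content and length in the osteoclast effects was not tested.

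The PSC table also gives, per gene, the intron reads as a share of all reads of the gene. Its median over the 7496 genes was 9.69% in controls and 11.4% in cKO libraries, and it was higher in cKO for 60.9% of genes. Among the 478 genes higher in PSCs the share was higher in cKO for 49.4%, and among the 56 lower genes for 92.9%, with a median rise of 3.35 percentage points. The share and the RPKM come from the same libraries and are not independent readings. Tmem147 went from 1.89% to 23.6% (means of 2 and 3 libraries), Ctsa from 0.566% to 3.8%, Fpgt from 5.42% to 24.0%, and Vps16 from 18.6% to 10.4%. Across genes the change of the share had an r of -0.18 with the PSC effect and 0.0067 with the osteoclast effect. No intron share was used for osteoclasts.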

How the data were processed

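RNA was sequenced on an Ion Torrent Proton after SMART-seq v4 amplification. The study's methods name FastQC 0.1.1.8, Trim Galore 0.6.4, kallisto 0.46.0 on GRCm38 and DESeq2. No source used here names the program that made the tables or says whether it used strand. Osteoclast values are gene-level raw counts as deposited, with columns of their own comparison (p-value, FDR, fold change) that were not used. For PSCs the authors deposited RPKM per gene beside a ratio of intron to total gene reads. Whole reads could be recovered from the RPKM steps (within 0.02 reads in all 5 libraries) for 83.4% of the genes compared. PSC effects were tested with limma 3.58.1 on log2(RPKM + 1) over 11045 genes, osteoclast counts with edgeR 4.0.16 (quasi-likelihood, TMM) over 10724 genes, and the difference of the effects with limma over 7496 genes and 11 libraries, in R 4.3.3. P-values were Benjamini-Hochberg adjusted, with a threshold of 0.05. DESeq2 1.42.0, other scalings, filters and pseudocounts, and leaving out each library were alternatives. Scripts were tested on simulated data.

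Members and gene lists were chosen with earlier results of these data known. The text names Prmt5, Postn and Ctsk, the genes with the largest smaller effect among those whose groups were apart in both cell types (10 for each shared direction, 6 for each opposite one), the 8 largest differences each way among called genes with an average of at least 4 on both log2 scales, 2 genes of each list by the p of the difference, and every gene called in osteoclasts. Other names were chosen after their values were seen, and 1 gene that the rule named is not reported here. Sequences are from RefSeq (GRCm38.p6), and gene overlaps from GENCODE.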

Additional observations from a re-analysis of the deposited data

Results flagged for a closer look

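The cKO effect differed between PSCs and osteoclasts in 378 genes by the limma test of the difference. Of these, 46 were named by the rule and are called the named genes here and below. Further genes that the text names, Hspg2, Hnrnph1, Clk2 and Srpk1 among them, also passed and are not listed here. Differences are given as PSC effect minus osteoclast effect in log2 units. Among the named genes the largest positive ones were those of Adamts10 (1.90), Vps16 (1.86), Fpgs (1.85), Luc7l (1.78), Sf3b2 (1.77), Ivns1abp (1.76), Gramd1a (1.73), Dvl1 (1.72), Prkcd (1.71), Fpgt (1.69), Snrnp200 (1.45), Col18a1 (1.44), Srsf7 (1.34), Pnn (1.31) and Rbm12b2 (1.30). Between 0.91 and 1.15 stood Ppan (1.15), Ccna2 (1.13), Ercc5 (1.12), Olfml3 (1.09), Ankrd54 (1.06), Cdkn1a (1.06), Prmt5 (1.02), Eif5b (0.99), Ccnb2 (0.92) and Slc2a1 (0.91). The smaller ones were Psmd6 (0.84), Psme2 (0.84), Magoh (0.81), Eif2s1 (0.67), Hsp90b1 (0.62), Hspa9 (0.58), Rps27a (0.56) and Hspd1 (0.56). Negative differences of named genes were those of Tmem147 (-1.44), Mmp9 (-1.32), Hebp1 (-1.13), Ctsa (-1.13), Amdhd2 (-1.12), Tprgl (-1.12), Rtca (-1.11), Slc20a2 (-1.06), Fdxr (-0.98), Timp2 (-0.97), Lars2 (-0.90), Mmp14 (-0.89) and Sfxn3 (-0.80). Age, culture, table and unit differ with cell type, and their parts in these differences cannot be told apart.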

How the results depend on the processing

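No called value of a named gene reversed under the alternatives run. For the PSC effect, 534 genes passed, against 272 with a mean of at least 5 RPKM and at least 30 counts, 353 with no filter, 343 with size factors (63.6% higher, against 89.5%), 95 with all 6 PSC libraries and 39 to 236 with a library left out, the lowest without PSC control 1. On recovered reads edgeR called 690, of which 60% were higher, in a set of 6249 genes. For the osteoclast effect, 2 genes passed, against 37 with no filter, 1 with DESeq2, 1 with edgeR on DESeq2 size factors, 0 with limma (264 at an unadjusted p under 0.05) and 0 to 7 with a library left out, 7 without osteoclast cKO 1. The r of the effects was -0.036 with the stricter filter, 0.0091 with none, and -0.043 to 0.0115 with a library left out. For the difference, 378 genes passed, against 183 with no filter, 206 with PSC size factors, 145 with all 6 PSC libraries, 205 with centred effects, 576 with separate fits and 139 to 529 with a library left out, the lowest without PSC control 1 and the highest without osteoclast cKO 1. Left-out fits with 1 PSC control assume that it varies like the other libraries. Of the 46 named genes whose difference passed, 35 passed with size factors, 33 after centring, 41 with TMM, 27 with all 6 PSC libraries, 27 with no filter, 22 with a replicate block (Prmt5 and Mmp14 among those lost) and 25 to 45 with a library left out, the lowest without PSC control 2 and 26 without PSC control 1. On recovered reads edgeR called 32 of the 40 with a value.

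Replicate numbers gave no sign of pairing in osteoclasts, where deviations of same-numbered libraries correlated at -0.060, 0.070 and -0.089. In PSCs the values were -0.041 and -0.049. With 2 PSC controls, whose deviations mirror each other, these values cannot show whether PSC libraries were paired. With a replicate block 0 genes passed in PSCs (1137 at an unadjusted p under 0.05), 0 in osteoclasts (309) and 103 in the difference. Depth was lowest in osteoclast cKO 3, at 984885 counts. Scalings of both tables together and list counts without a library were added after seeing the data, as were the fits on recovered reads.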
